A study of Mus musculus with 28 samples.

Results

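The genes described here are 37 cell cycle and DNA replication genes, chosen by symbol from a list. Earlier results of these data were known when they were chosen. All 37 have a row in both count tables, which together hold 34135 gene symbols (31179 in duodenum, 30227 in kidney). They divide by role into 6 subunits of the replicative helicase (Mcm2 to Mcm7), 6 genes of DNA synthesis and nucleotide supply (Pcna, Tyms, Rrm1, Rrm2, Tk1, Dut), 2 genes that maintain chromatin behind the fork (Hells, Uhrf1), 7 mitotic cyclins and kinases (Ccna2, Ccnb1, Ccnb2, Cdk1, Plk1, Aurka, Aurkb), 4 genes of the spindle checkpoint and the anaphase-promoting complex (Bub1, Bub1b, Cdc20, Ube2c), 4 of the centromere (Cenpa, Cenpe, Cenpf, Birc5), 6 of the spindle and cell division (Kif11, Kif20a, Kif23, Tpx2, Nusap1, Prc1) and 2 of chromosome structure (Mki67, Top2a).

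RNA was sequenced from duodenum and kidney cortex of female mice aged 8 weeks, all fed TD.96348, a chow with added lactose, phosphate and calcium. Per tissue there were 6 Vdr+/+ libraries (WT), with the vitamin D receptor intact, 4 from Vdr-/- mice (KO) and 4 from Vdr AF2 mice, whose receptor carries an altered activation function 2, the surface that binds coactivators. The study set receptor signalling without coactivators against no receptor signalling. Nothing used here says that replicates of a group, or equal numbers in different tissues, are separate or the same mice, so p-values measure the spread between these samples.

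Duodenal libraries held 3713352 to 6519522 counts, apart from WT 2 with 25181916, and kidney libraries 3725648 to 6492228. The 37 genes took 0.0770% to 0.189% of the counts of a duodenal library and 0.0158% to 0.0296% of those of a kidney library. Levels are given in CPM, counts relative to the size of the library, with TMM factors over all 28 libraries. Vdr lay at 258 to 642 CPM in WT duodenum, 94.0 to 115 in KO and 355 to 431 in AF2, and in kidney at 182 to 223 (WT), 8.20 to 22.9 (KO) and 66.4 to 95.1 CPM (AF2). The part of Vdr that is deleted is not stated in the sources used here, so tags outside it may still be counted in KO. Markers matched the tissue labels. The 6 proximal tubule genes summed to 13191 to 21442 CPM in kidney and to at most 1.60 CPM in duodenum, while 9 Paneth cell genes summed to at most 0.781 CPM in kidney and to 2254 to 7908 CPM in duodenum. Pancreatic acinar genes, from an organ that lies against the duodenum, summed to 51.9 to 9436 CPM in duodenal libraries.

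A cell that divides copies its DNA in S phase and separates the copies in mitosis, and most cells of an adult organ do neither. E2F transcription factors switch on the genes of DNA replication before S phase, and a later wave of transcription switches on the genes of mitosis. In that wave B-Myb complexes bind a cell cycle homology region (CHR) and NF-Y binds CCAAT boxes. The lining of the duodenum is renewed throughout life from crypts, where stem cells and their daughters divide, while the villus is covered by enterocytes that have stopped dividing. Kidney tubule cells divide rarely in a healthy adult.

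The promoter letters of the 2 waves differ by share over the genes and not in every gene. As examples, 6 promoters are shown, 3 of replication genes and 3 of mitotic genes with values given by library. Each is a RefSeq promoter on GRCm38.p6 (the build mm10), from 250 bases before to 50 bases after the gene start, and 32 of the 37 genes had an entry. Capitals mark 3 motifs found on either strand: the CHR letters TTTGAA, the CCAAT box CCAAT, and the E2F letters TTCCCGC or TTGGCGC. The first 3 genes act in replication: Mcm5 (chr8:75109259-75109558, plus strand), Mcm2 (chr6:88898731-88899030, minus strand) and Pcna (chr2:132253131-132253430, minus strand). The other 3 act in mitosis: Cdk1 (chr10:69352863-69353162, minus strand), Ccnb1 (chr13:100786437-100786736, minus strand) and Plk1 (chr7:122159185-122159484, plus strand).
Mcm5: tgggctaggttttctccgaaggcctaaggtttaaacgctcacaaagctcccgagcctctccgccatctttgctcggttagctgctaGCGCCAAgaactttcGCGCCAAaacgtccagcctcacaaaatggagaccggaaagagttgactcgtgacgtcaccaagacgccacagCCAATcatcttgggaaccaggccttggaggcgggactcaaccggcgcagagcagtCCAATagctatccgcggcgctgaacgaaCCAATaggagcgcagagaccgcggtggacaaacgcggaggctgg
Mcm2: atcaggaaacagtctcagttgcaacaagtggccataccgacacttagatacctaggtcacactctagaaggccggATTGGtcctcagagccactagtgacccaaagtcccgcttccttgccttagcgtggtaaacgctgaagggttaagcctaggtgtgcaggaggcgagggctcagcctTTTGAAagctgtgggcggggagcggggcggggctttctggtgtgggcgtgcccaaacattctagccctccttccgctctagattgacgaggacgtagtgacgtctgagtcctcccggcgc
Pcna: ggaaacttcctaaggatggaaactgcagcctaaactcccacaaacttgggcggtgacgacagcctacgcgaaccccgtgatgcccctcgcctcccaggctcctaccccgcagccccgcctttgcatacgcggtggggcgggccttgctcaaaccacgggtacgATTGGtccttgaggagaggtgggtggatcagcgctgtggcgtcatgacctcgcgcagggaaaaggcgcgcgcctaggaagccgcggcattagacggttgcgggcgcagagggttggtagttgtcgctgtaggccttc
Cdk1: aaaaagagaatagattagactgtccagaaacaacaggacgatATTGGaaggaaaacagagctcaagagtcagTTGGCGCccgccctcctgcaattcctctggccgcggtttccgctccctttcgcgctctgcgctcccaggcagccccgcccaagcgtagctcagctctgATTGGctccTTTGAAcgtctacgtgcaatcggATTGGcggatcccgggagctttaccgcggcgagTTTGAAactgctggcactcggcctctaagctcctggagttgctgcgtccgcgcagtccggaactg
Ccnb1: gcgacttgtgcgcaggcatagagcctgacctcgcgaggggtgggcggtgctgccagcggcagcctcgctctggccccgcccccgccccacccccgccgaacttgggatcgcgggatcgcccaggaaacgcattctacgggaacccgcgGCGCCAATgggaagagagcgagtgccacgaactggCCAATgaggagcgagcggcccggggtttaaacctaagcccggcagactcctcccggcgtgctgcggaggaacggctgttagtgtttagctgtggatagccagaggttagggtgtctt
Plk1: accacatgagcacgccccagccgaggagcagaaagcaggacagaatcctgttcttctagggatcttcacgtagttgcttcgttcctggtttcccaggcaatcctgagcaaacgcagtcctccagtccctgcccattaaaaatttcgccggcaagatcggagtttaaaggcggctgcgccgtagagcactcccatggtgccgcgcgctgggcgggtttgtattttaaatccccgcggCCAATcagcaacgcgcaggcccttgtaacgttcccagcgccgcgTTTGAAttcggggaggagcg

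Mcm5 held the E2F letters at positions -164 and -149 from its start and no CHR. Mcm2 was the exception among replication genes, with a CHR at -70, a CCAAT box at -175 and no E2F letters. Pcna held a CCAAT box at -87, and neither E2F letters nor a CHR. Cdk1 held 3 CCAAT boxes, 2 CHR and 1 set of E2F letters. In Plk1 the CCAAT box lay at -14 and the CHR at 30. In Ccnb1 the E2F letters at -102 share bases with the CCAAT box at -99, and there was no CHR. Over the members with a sequence, the CHR letters were in 14 of 19 mitotic genes and in 1 of 13 replication genes, against 18.1% of all 27025 promoters. CCAAT was in 17 of 19 and in 9 of 13, against 37.9% of all. The E2F letters were in 3 of 19 mitotic and 7 of 13 replication genes, against 6.93% of all. A match describes letters and not a bound factor.

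The summed level of the 37 genes was 1111 ± 265 CPM (SD, n = 6) in WT duodenum and 193 ± 29.3 CPM (SD, n = 6) in WT kidney. It ran from 818 to 1456 CPM in the duodenal libraries and from 171 to 251 CPM in the kidney libraries, so the groups were far apart. All 37 genes had a read in every duodenal library, whereas between 0 and 5 of them had none in a given kidney library. In bulk tissue, fewer dividing cells and less RNA per dividing cell cannot be told apart.

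Between WT tissues 35 of the 37 genes were called higher in duodenum by edgeR (adjusted p under 0.05) and 0 lower, where 35.7% of all 14944 genes tested were called higher and 34.3% lower. Their median log2 fold change was 2.93, against 0.01 over all genes, and 28 were called and over 4-fold higher (12.4% of all genes). For 32 of the 37 every duodenal library lay above every kidney library (25.1% of all genes). The overlapping genes were Tyms, Dut, Mcm4, Mcm6 and Aurkb. With each of the 8 other settings tried 35 genes were called, and 34 or 35 when a library was left out: Mcm6 lost its call without WT duodenum 2, WT duodenum 3 or WT kidney 3.

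**Figure D1:**
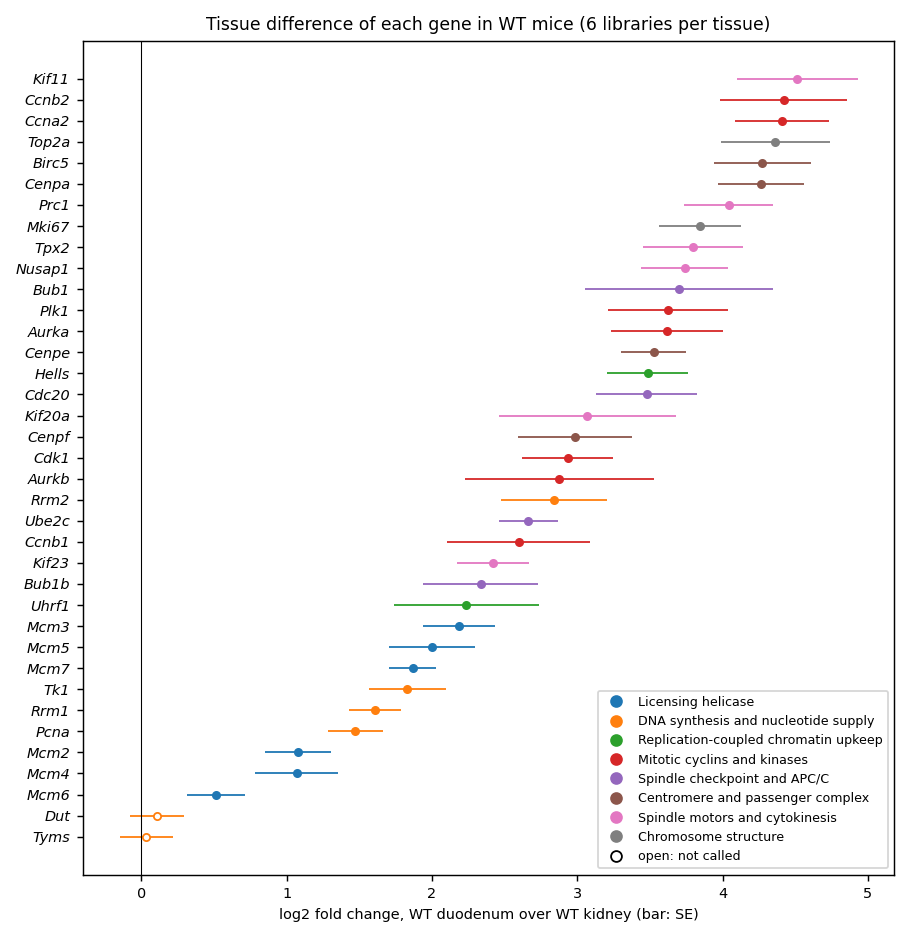
Log2 fold change of WT duodenum over WT kidney cortex for each of the 37 genes (bars: SE, 6 libraries per tissue). Genes are ordered by fold change and coloured by role, with open symbols for genes not called. Values run from 0.03 for Tyms to 4.51 for Kif11, which passed the expression filter only through its duodenal counts.

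The size of the difference varied by role. The median log2 fold change was 1.47 for the helicase, 1.54 for synthesis and nucleotide supply and 2.86 for the chromatin genes. It was 3.62 for mitotic cyclins and kinases, 3.07 for the checkpoint, 3.89 for the centromere, 3.77 for the spindle and 4.10 for chromosome structure. No test was made between roles, and 9 mitotic or chromatin genes (Uhrf1, Ccna2, Ccnb1, Aurka, Aurkb, Bub1, Bub1b, Kif11 and Kif20a) passed the expression filter only through their duodenal counts. Among the 28 genes that passed in each tissue alone, 26 were called higher and the median was 2.89. Of the 11743 genes of the whole table that did so, 4100 were called higher and 3818 lower.

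The helicase subunits form the ring that unwinds DNA at the fork. Mcm2 ranged over 12.6, 16.9 and 31.5 CPM (lowest, median, highest) in WT duodenum and over 7.13, 8.57 and 10.9 CPM in WT kidney. The ranges did not meet, and the log2 fold change was 1.08 ± 0.23 (SE, edgeR adjusted p 8.01e-05), or 2.11-fold. Mcm5 ranged over 11.7, 18.5 and 29.8 CPM in duodenum and over 2.33, 3.77 and 8.55 CPM in kidney, a log2 fold change of 2.00 ± 0.30 (adjusted p 2.91e-07). The other subunits were called higher too, from Mcm6 at 0.52 ± 0.20 (adjusted p 0.0204) to Mcm3 at 2.18. The 3' end of Mcm7 overlaps an exon of Cops6 on the other strand, and reads of such a pair cannot be told apart because the use of strand is not given in the sources used here. The same holds for Ccna2 with Exosc9, Kif20a with Cdc23 and Prc1 with Rccd1.

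Among the synthesis genes the spread was widest. Tyms, which makes thymidylate, ranged over 15.3, 17.6 and 21.7 CPM in WT duodenum and over 16.6, 17.2 and 18.4 CPM in WT kidney. The kidney range lay inside the duodenal one, with a log2 fold change of 0.03 ± 0.18 (edgeR adjusted p 0.874). Dut, which removes dUTP from the nucleotide pool, ranged over 17.8, 22.1 and 29.3 CPM and over 14.3, 20.5 and 27.8 CPM, a log2 fold change of 0.11 ± 0.19 (adjusted p 0.624). These were the 2 genes of the 37 that were not called. Tyms lies on chromosome 5 at 30058202 to 30073617 and Dut on chromosome 2 at 125247190 to 125258608, and a pseudogene of Tyms took 4 reads in all duodenal libraries and 1 in all kidney libraries.

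Pcna, the sliding clamp of DNA polymerases, did differ. It ranged over 20.0, 27.4 and 31.5 CPM in duodenum and over 6.01, 9.39 and 15.7 CPM in kidney (log2 fold change 1.47 ± 0.19, edgeR adjusted p 1.24e-08). Rrm2, the regulated subunit of ribonucleotide reductase, ranged over 17.8, 23.4 and 28.3 CPM and over 0.376, 3.23 and 6.72 CPM. Its log2 fold change of 2.84 ± 0.37 stood beside 1.61 for its partner Rrm1, the large subunit. Tk1, which salvages thymidine in dividing cells, ranged over 12.6, 18.6 and 23.5 CPM and over 3.00, 5.66 and 6.41 CPM (1.83 ± 0.27). All 3 had ranges that did not meet.

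Hells, a chromatin remodeller needed for DNA methylation, ranged over 24.1, 33.9 and 65.9 CPM in duodenum and over 1.86, 3.23 and 5.38 CPM in kidney (log2 fold change 3.48 ± 0.28, edgeR adjusted p 1.65e-13). Uhrf1, which brings the maintenance methyltransferase to new DNA, ranged over 3.73, 4.62 and 7.43 CPM in duodenum, and over 0, 0.667 and 3.14 CPM in kidney on 14 reads in all 6 libraries. Its log2 fold change was 2.24 ± 0.50. Both genes had ranges that did not meet.

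Cdk1, the kinase that drives entry into mitosis, ranged over 13.6, 16.8 and 21.3 CPM in duodenum and over 0.896, 1.87 and 3.76 CPM in kidney (log2 fold change 2.93 ± 0.31, edgeR adjusted p 1.37e-10). Cyclins that bind it differed between the tissues too. Ccnb1 ranged over 5.66, 8.34 and 12.6 CPM and over 0, 1.25 and 3.59 CPM (2.60 ± 0.49). Ccnb2 ranged over 22.0, 31.1 and 44.6 CPM and over 0, 1.49 and 3.59 CPM (4.42 ± 0.44). Ccna2, a cyclin of S phase and early mitosis, ranged over 18.3, 26.3 and 33.6 CPM and over 0.494, 1.15 and 1.88 CPM (4.41 ± 0.32). For each of these cyclins the lowest duodenal library lay above the highest kidney library.

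Plk1, a kinase of spindle assembly, ranged over 18.3, 27.4 and 46.2 CPM in duodenum and over 0.751, 1.62 and 7.17 CPM in kidney (log2 fold change 3.62 ± 0.41). WT 1 was its highest kidney library. The predicted gene Gm44985 lies opposite Plk1 and took 867 reads in all duodenal libraries and 0 in kidney. Cdc20, an activator of the anaphase-promoting complex, ranged over 15.2, 25.0 and 37.003 CPM and over 0.582, 2.49 and 3.59 CPM (3.48 ± 0.35), and its 3' end overlaps an exon of Elovl1 on the other strand. Ube2c, the ubiquitin-conjugating enzyme that works with that complex, ranged over 17.3, 24.4 and 33.1 CPM and over 2.91, 4.11 and 4.93 CPM (2.66 ± 0.20, edgeR adjusted p 1.7e-14). The ranges of these 3 genes did not meet.

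Cenpf, a kinetochore protein, ranged over 26.9, 39.0 and 68.5 CPM in duodenum and over 2.97, 5.73 and 7.57 CPM in kidney (log2 fold change 2.99 ± 0.39). Birc5, the survivin subunit of the chromosomal passenger complex, ranged over 49.6, 61.5 and 82.9 CPM and over 1.12, 2.99 and 6.28 CPM (4.27 ± 0.33). Both sets of ranges lay apart. Kif11, the motor that pushes spindle poles apart, had the highest fold change of the 37. It lies on chromosome 19 at 37376403 to 37421859 and ranged over 7.98, 11.9 and 23.3 CPM in duodenum and over 0, 0.667 and 0.896 CPM in kidney. That is a log2 fold change of 4.51 ± 0.41 (edgeR adjusted p 2.41e-12), which rests on 8 reads in the 6 kidney libraries. Tpx2, which activates Aurora A on spindle microtubules, ranged over 13.3, 15.5 and 30.4 CPM and over 0, 1.24 and 2.25 CPM (3.80 ± 0.35).

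Mki67, the gene of the proliferation antigen Ki-67, ranged over 32.9, 55.0 and 97.0 CPM in WT duodenum and over 2.23, 4.08 and 7.17 CPM in WT kidney. The lowest duodenal library was well above the highest kidney library, with a log2 fold change of 3.84 ± 0.28 (edgeR adjusted p 4.19e-13), or 14.3-fold. Top2a, the topoisomerase that untangles chromosomes, ranged over 110.4, 143 and 256 CPM and over 2.91, 8.40 and 15.2 CPM. Its log2 fold change was 4.36 ± 0.37 (adjusted p 2.84e-10), or 20.5-fold.

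**Figure D2:**
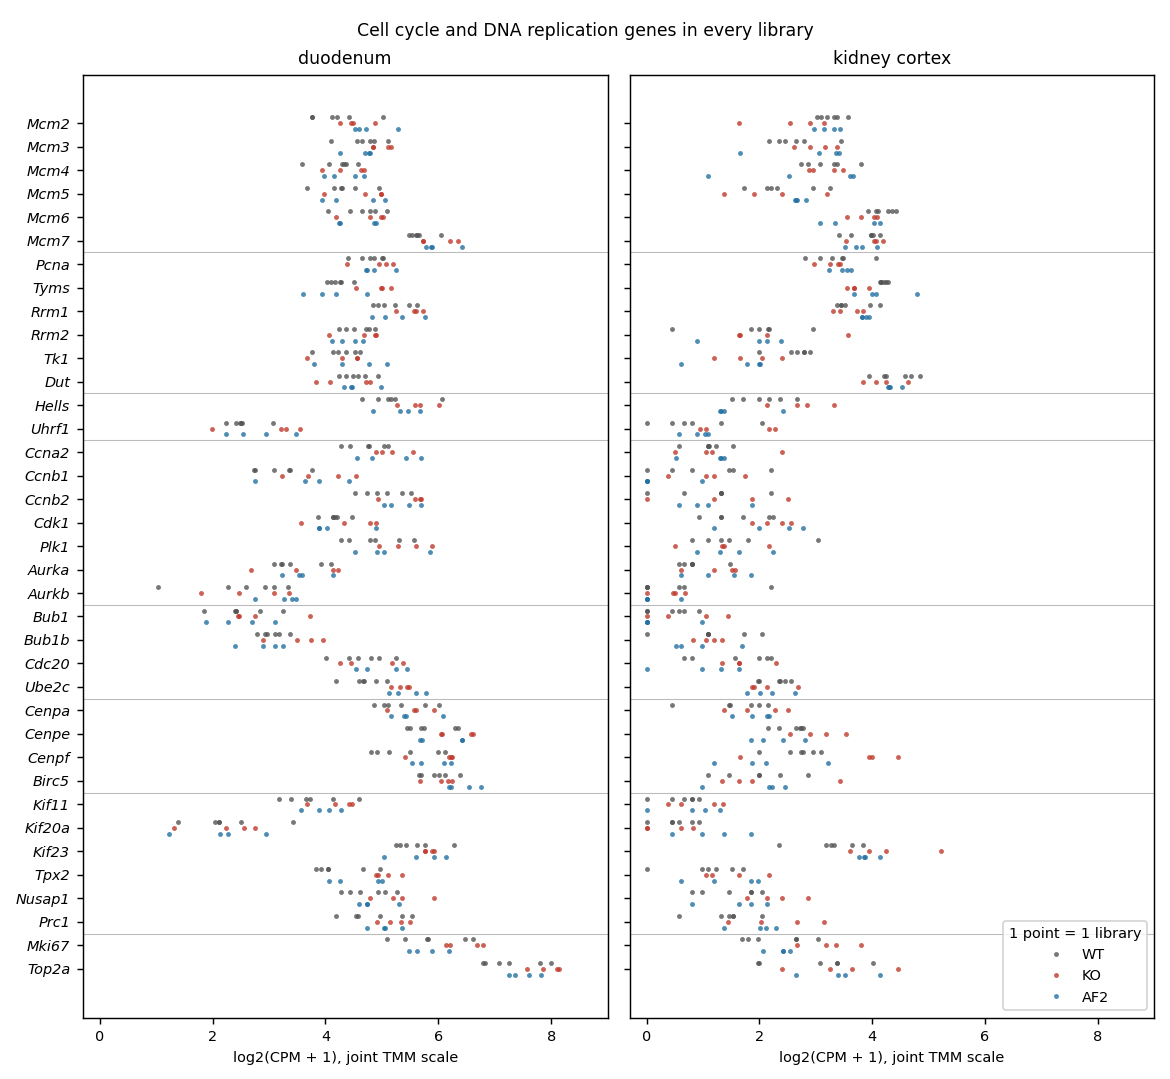
Level of each of the 37 genes, as log2(CPM + 1), in each of the 14 duodenal and 14 kidney cortex libraries, with 1 point per library and colours for genotype. Duodenal points lie above kidney points for nearly all genes, while those of Tyms and Dut lie on each other.

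The same contrast within each mutant gave 36 genes called higher in KO (31.2% of all genes called higher) with a median log2 fold change of 3.07, and 34 in AF2 (32.0%) with a median of 3.43. Dut was not called in KO (0.21 ± 0.23, edgeR adjusted p 0.440). Tyms, which was called in KO, was not in AF2 (-0.02 ± 0.23, adjusted p 0.943), nor were Dut (0.23 ± 0.23, adjusted p 0.383) and Kif20a (1.45 ± 0.67, adjusted p 0.0590). These counts compare tissues and not genotypes. The genes tested include the 9 that passed the expression filter in duodenum alone and not in kidney alone. That favours calls and high values in duodenum, and the mutants were not split by this filter.

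Pathway genes outside the 37 are given by list, beside the 35.7% of all genes called higher and 34.3% called lower in WT duodenum. Of the 87 genes in these lists, 85 passed the expression filter in duodenum alone and 65 in kidney alone. Some were therefore tested here only through their duodenal counts, which favours calls and high values in duodenum. Of 11 genes of G1 cyclins, their kinases and pocket proteins, 7 were called higher in duodenum and 4 lower, from Ccnd1, cyclin D1, at a log2 fold change of -1.76 ± 0.16 to Ccne2, cyclin E2, at 2.94 ± 0.29. Of 6 tested inhibitors of cyclin-dependent kinases 2 were called higher and 2 lower, from Cdkn1c (p57) at -2.26 ± 0.22 to Cdkn2b (p15) at 5.07 ± 0.46. Cell cycle transcription factors were higher in 9 of 11 tested and lower in 0, the highest being E2f8 at 4.85 ± 0.45. The lowest of them was E2f5 at -0.19 ± 0.18, which was not called.

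Among 14 genes that load and fire origins 8 were called higher and 1 lower, Orc2 (-0.73 ± 0.23), while Orc1 had the highest value at 6.23 ± 1.36. Of 19 genes of DNA polymerases, clamp loader and RPA 11 were called higher and 0 lower, from Rpa3 at -0.62 ± 0.55, not called, to Pole2 at 2.53 ± 0.55. Condensin, cohesin and kinetochore genes were called higher in 10 of 13 and lower in 1, Spc25 (-1.86 ± 0.15), with Ncapg highest at 4.43 ± 0.39. Checkpoint genes were called higher in 10 of 11 and lower in 1, the securin Pttg1 (-1.55 ± 0.12), with Ttk highest at 4.21 ± 0.46.

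In duodenum edgeR called 0 of the 37 genes between KO and WT, where 0.0226% of 13302 genes (3 genes) were called, and 12 had an unadjusted p under 0.05, all higher in KO (4.89% of all genes). DESeq2 called 2, Tyms and Ube2c, and limma-voom called 0. No share of all genes called by these 2 tools is given here or for later contrasts. Their calls are therefore not read as particular to the genes named. The log2 fold change was above 0 for 35 of the 37 genes (49.6% of all genes), with a median of 0.40. The summed level was 1457 ± 274 CPM (SD, n = 4) in KO, from 1089 to 1713 CPM, beside 1111 ± 265 CPM in WT, and the libraries of the groups overlapped.

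Ube2c and Tyms were the 2 genes for which every KO library lay above every WT library (0.887% of all genes). Ube2c, at 17.3, 24.4 and 33.1 CPM in WT, stood at 43.4, 35.0, 38.8 and 42.4 CPM in KO 1 to KO 4. Its log2 fold change was 0.70 ± 0.17 (edgeR adjusted p 0.118). Tyms, at 15.3, 17.6 and 21.7 CPM in WT, stood at 31.2, 22.2, 34.6 and 30.5 CPM in KO (0.78 ± 0.20, adjusted p 0.147). KO 2 was the lowest KO library for both, just above the highest WT library.

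Top2a stood at 281, 189, 274 and 231 CPM in KO, and WT reached 256 CPM (log2 fold change 0.60 ± 0.24, edgeR adjusted p 0.362). Mki67 stood at 109, 69.0, 102 and 72.5 CPM, with WT at up to 97.0 CPM (0.55 ± 0.29, adjusted p 0.484). KO 1 and KO 3 were above every WT library in both genes, while KO 2 and KO 4 were within the WT range. Tpx2 stood at 40.0, 28.6, 33.4 and 29.6 CPM in KO against at most 30.4 CPM in WT (0.84 ± 0.24, adjusted p 0.177). Cenpf stood at 71.7, 41.4, 75.1 and 73.8 CPM (0.60 ± 0.28, adjusted p 0.432), with KO 2 near the WT median.

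The cyclins were alike. Ccnb1 stood at 17.6, 8.38, 22.3 and 11.9 CPM in KO (log2 fold change 0.88 ± 0.31, edgeR adjusted p 0.296). Ccnb2 stood at 46.8, 29.6, 49.9 and 50.4 CPM (0.48 ± 0.20, adjusted p 0.347), and Ccna2 at 45.8, 28.6, 30.9 and 35.4 CPM (0.46 ± 0.22, adjusted p 0.416). In each at least 1 KO library lay inside the WT range. Cdk1, at 28.8, 10.8, 26.8 and 19.0 CPM, had its lowest library in KO 2, below all WT libraries (0.36 ± 0.24), and Plk1 stood at 58.0, 30.1, 47.8 and 38.0 CPM (0.58 ± 0.30, adjusted p 0.469).

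Genes of replication and chromatin other than Tyms overlapped WT as well. Mcm2 stood at 28.3, 18.2, 21.4 and 20.8 CPM in KO (log2 fold change 0.31 ± 0.23) and Pcna at 29.7, 19.7, 35.9 and 32.7 CPM (0.18 ± 0.18). Rrm2, at 28.8, 15.8, 28.5 and 24.8 CPM, had a log2 fold change of 0.12. Dut, at 25.4, 13.3, 26.8 and 15.9 CPM, had one of -0.11 ± 0.21. Kif20a, a spindle gene, was the other member below 0, at -0.09 ± 0.48. Hells stood at 63.9, 37.4, 50.3 and 47.3 CPM (0.45 ± 0.24, edgeR adjusted p 0.494) and Uhrf1 at 8.29, 2.96, 10.7 and 8.84 CPM (0.69 ± 0.35, adjusted p 0.452), each overlapping WT.

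The AF2 duodenum also had 0 of the 37 genes called against WT by edgeR (0.0677% of all genes, 9 genes), and 5 had an unadjusted p under 0.05, all higher (4.95% of all genes). DESeq2 called 1, Ube2c, and limma-voom 0. The log2 fold change was above 0 for 29 of 37 genes (6655 of all 13302 genes), with a median of 0.15. Summed levels ran from 1031 to 1664 CPM (1279 ± 284, SD, n = 4), across the WT range.

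Ube2c was the gene of the 37 with the lowest adjusted p. It stood at 38.2, 34.1, 53.9 and 47.7 CPM in AF2 1 to AF2 4, all above the WT maximum of 33.1 CPM, and was the only member whose groups did not overlap (1.29% of all genes). The log2 fold change was 0.80 ± 0.17 (edgeR adjusted p 0.0630). It lies on chromosome 2 at 164769898 to 164778822. Birc5 stood at 92.1, 71.5, 107 and 74.0 CPM (0.48 ± 0.15, adjusted p 0.210) and Mcm2 at 25.3, 23.3, 37.8 and 22.0 CPM (0.57 ± 0.23, adjusted p 0.333). Ccna2 stood at 42.0, 27.3, 51.0 and 22.4 CPM (0.46 ± 0.21, adjusted p 0.402). These 3 overlapped WT.

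In AF2 Mki67 stood at 58.2, 43.8, 71.8 and 48.2 CPM, a log2 fold change of -0.13 ± 0.29 (edgeR adjusted p 0.909). Top2a stood at 193, 151, 226 and 164 CPM (0.17 ± 0.25) and Tyms at 17.2, 11.1, 25.5 and 14.3 CPM (-0.05 ± 0.21). All 4 AF2 libraries of Mki67 and Top2a lay within the WT range, while those of Tyms lay inside it and on both sides of it.

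Set directly against KO, the AF2 duodenum had 0 genes called by edgeR (0.0150% of all genes, 2 genes) and 4 with an unadjusted p under 0.05 (9.98% of all genes). DESeq2 and limma-voom called 0 as well. Of the 4, Birc5 was higher in AF2 (log2 fold change 0.39 ± 0.17) and Tyms (-0.82 ± 0.23, adjusted p 0.175), Bub1b (-0.72 ± 0.30, adjusted p 0.408) and Nusap1 (-0.53 ± 0.25) lower. For 8 of 37 genes the fold change was above 0 (49.6% of all genes), and the median was -0.20. This direction turned with a block for the library codes, under which 31 were above 0, and the count ran from 4 without AF2 3 and 5 without KO 2 to 13 without KO 1 and 15 without AF2 2. Mcm3 was the gene whose AF2 libraries all lay below all KO libraries (2.74% of all genes).

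**Figure D3:**
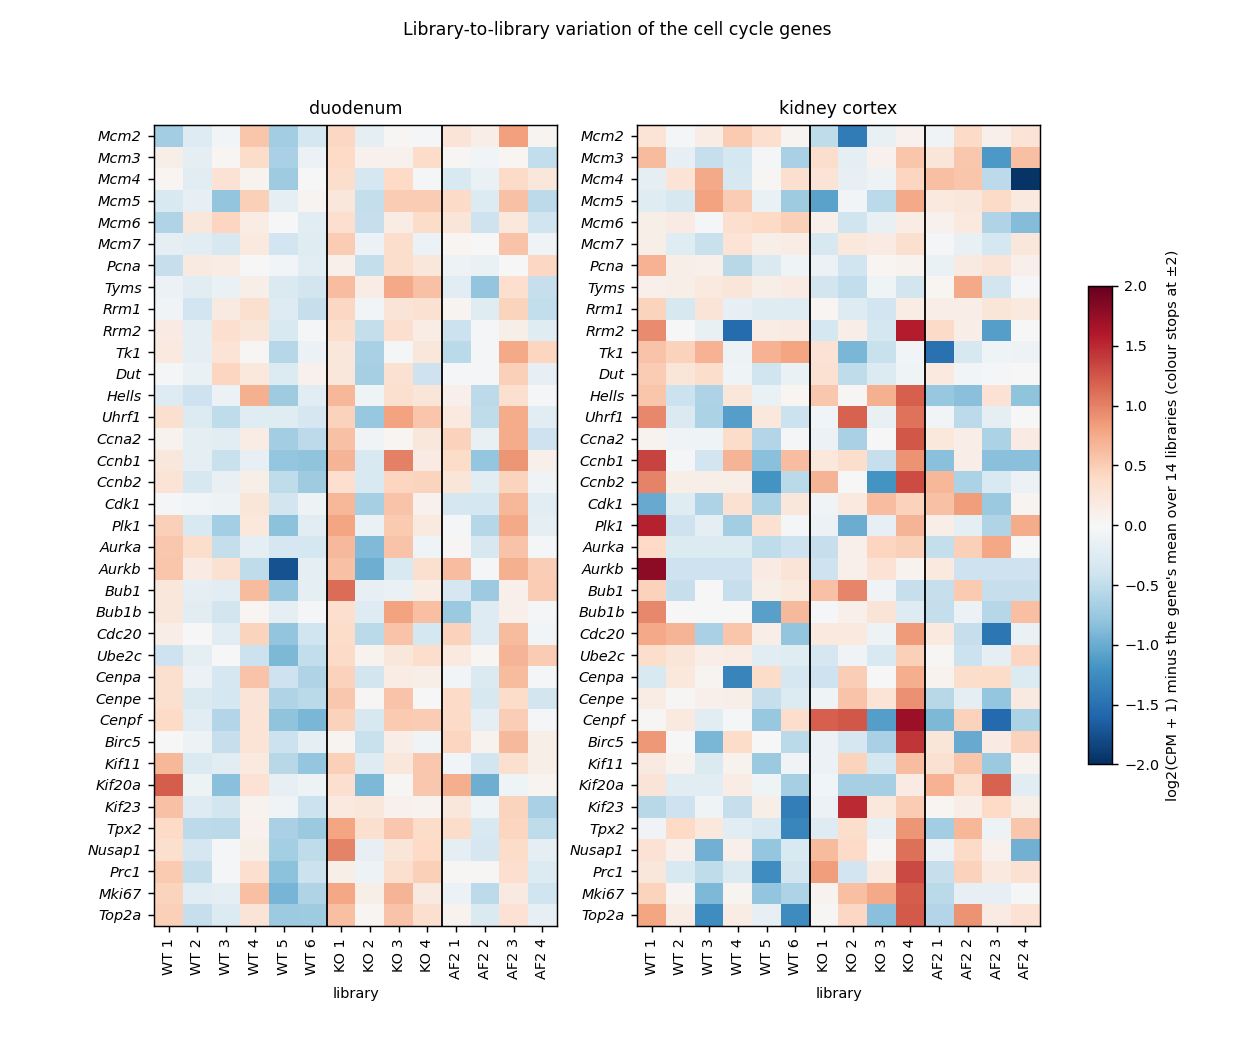
Level of each of the 37 genes in each library, as log2(CPM + 1) minus the gene's mean over the 14 libraries of that tissue, with colours stopping at 2 in either direction. Rows are genes by role and columns are libraries by genotype. Red is above and blue below the mean, and in duodenum whole columns share a colour: WT 5 and WT 6 are low and KO 1 and AF2 3 high. In kidney KO 4 is high.

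Libraries of a genotype differed from each other across most of the 37 genes at the same time. Of the 6 WT duodenal libraries WT 5 was the lowest for 20 genes and WT 6 for 9, and WT 1 was the highest for 16 and WT 4 for 14. Of all 14 duodenal libraries AF2 3 was the highest for 14 genes, KO 1 for 9 and KO 3 for 7, and KO 2 was the lowest for 7. The mean log2 deviation of the 37 genes from the tissue mean was 0.16, -0.19, -0.18, 0.19, -0.54 and -0.35 in WT 1 to WT 6. It was 0.47, -0.29, 0.35 and 0.23 in KO 1 to KO 4 and 0.07, -0.28, 0.45 and -0.10 in AF2 1 to AF2 4. Libraries of every genotype therefore fell on both sides of 0.

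The sample descriptions carry library codes in 3 runs of consecutive numbers, which the labels do not explain. WT 1 and WT 2 form a run, WT 3 and WT 4 share theirs with all KO libraries, and WT 5 and WT 6, the lowest duodenal WT libraries, share theirs with all AF2 libraries. A fit chosen after seeing the data used only the WT libraries of the mutant's own run. Between KO and these 2 WT libraries 26 of 37 genes were above 0 (51.2% of all genes) with a median log2 fold change of 0.22. There edgeR called 0 of the 37 (0.00750% of all genes). Between AF2 and its 2 WT libraries 36 of 37 were above 0 (52.1% of all genes) with a median of 0.57, and 3 were called (2.19% of all genes). Those were Ube2c (1.12 ± 0.24, adjusted p 0.0132), Cenpf (1.11 ± 0.22, adjusted p 0.00825) and Top2a (0.76 ± 0.17, adjusted p 0.0183). Mki67 stood at a log2 fold change of 0.60 in AF2 and 0.21 in KO in these fits, and Top2a at 0.39 in KO. In kidney the same choice gave 19 of 28 genes above 0 in KO (51.4% of all genes) and 17 of 25 in AF2 (50.7%), and edgeR called 0 in KO (0.534%) and 0 in AF2 (0.691%). So in duodenum the order of KO and AF2 among the members turned with the WT libraries used, and 2 libraries set the WT level in each.

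**Figure D4:**
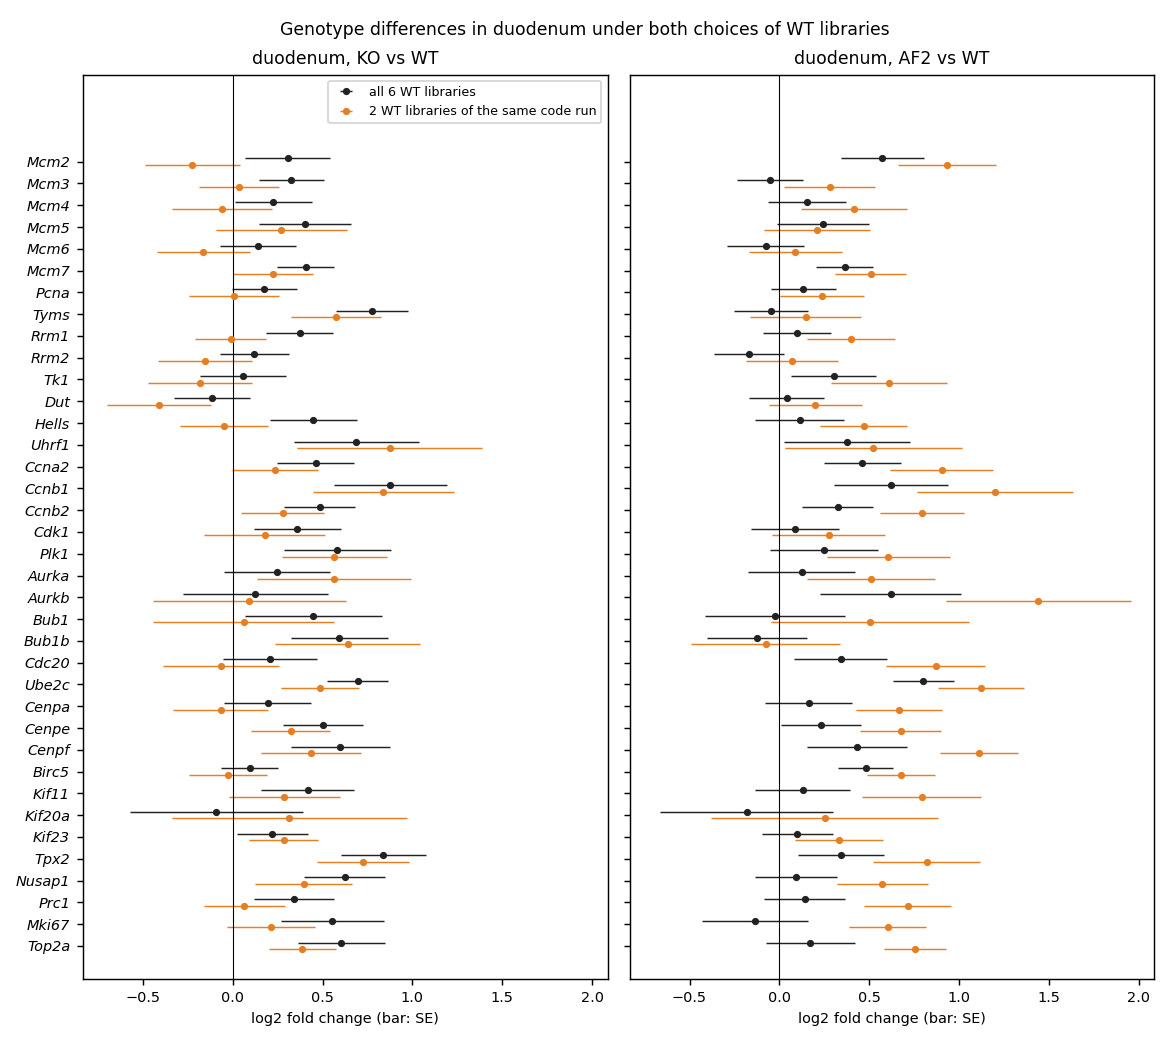
Log2 fold change (bars: SE) of KO and AF2 over WT in duodenum for each of the 37 genes, with all 6 WT libraries in black and the 2 WT libraries of the same code run in orange. The orange points lie mostly below the black ones in KO and above them in AF2.

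Without WT 4, edgeR called 4 genes in KO (Tyms, Hells, Ube2c and Tpx2) and 3 in AF2 (Mcm2, Ube2c and Birc5), and without AF2 2 it called Ube2c in AF2. The share of all genes called in these refits is not given here, so the calls are not read as particular to the members. WT 4 had the highest mean deviation of the 37 genes among the WT libraries (0.19) and the lowest of the villus markers (-0.46).

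Fold changes of other intestinal cell markers leaned above or below WT by list in duodenum, without a call by edgeR. All 12 villus enterocyte genes lay below WT in KO (median log2 fold change -0.34) and in AF2 (-0.30), with summed levels of 13001 to 27287 (WT), 12254 to 17073 (KO) and 13238 to 19165 CPM (AF2). Of 10 intestinal stem cell genes 9 lay above WT in KO (median 0.37) and 8 in AF2 (0.25). Their sums overlapped, at 543 to 946 (WT), 776 to 912 (KO) and 709 to 924 CPM (AF2), with the highest library in WT. Of 9 Paneth cell genes, which mark the crypt base, 9 lay above WT in KO (median 0.95) and 8 in AF2 (0.57), with sums of 2254 to 4070 (WT), 3890.1 to 7908 (KO) and 2568 to 7042 CPM (AF2). None of these markers was at 0 in a duodenal library. Smooth muscle genes lay above WT in 8 of 8 in AF2 (median 0.47) and in 1 of 8 in KO (-0.09). Goblet cell genes summed to 4540 to 8052 (WT), 4463 to 5576 (KO) and 4689 to 7032 CPM (AF2). Enteroendocrine genes summed to 260 to 393 (WT), 314 to 531 (KO) and 412 to 448 CPM (AF2). Of 80 marker genes of all lists tested in duodenum edgeR called 0 in KO and 0 in AF2, with 18 (11.4% of all genes) and 21 (11.8%) under 0.05 before adjustment. DESeq2 called 5 and 3 of them, and limma-voom 0, with no share of all genes given for either tool. Whether the share of crypt in a sample set the level of the 37 genes was not tested.

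**Figure D5:**
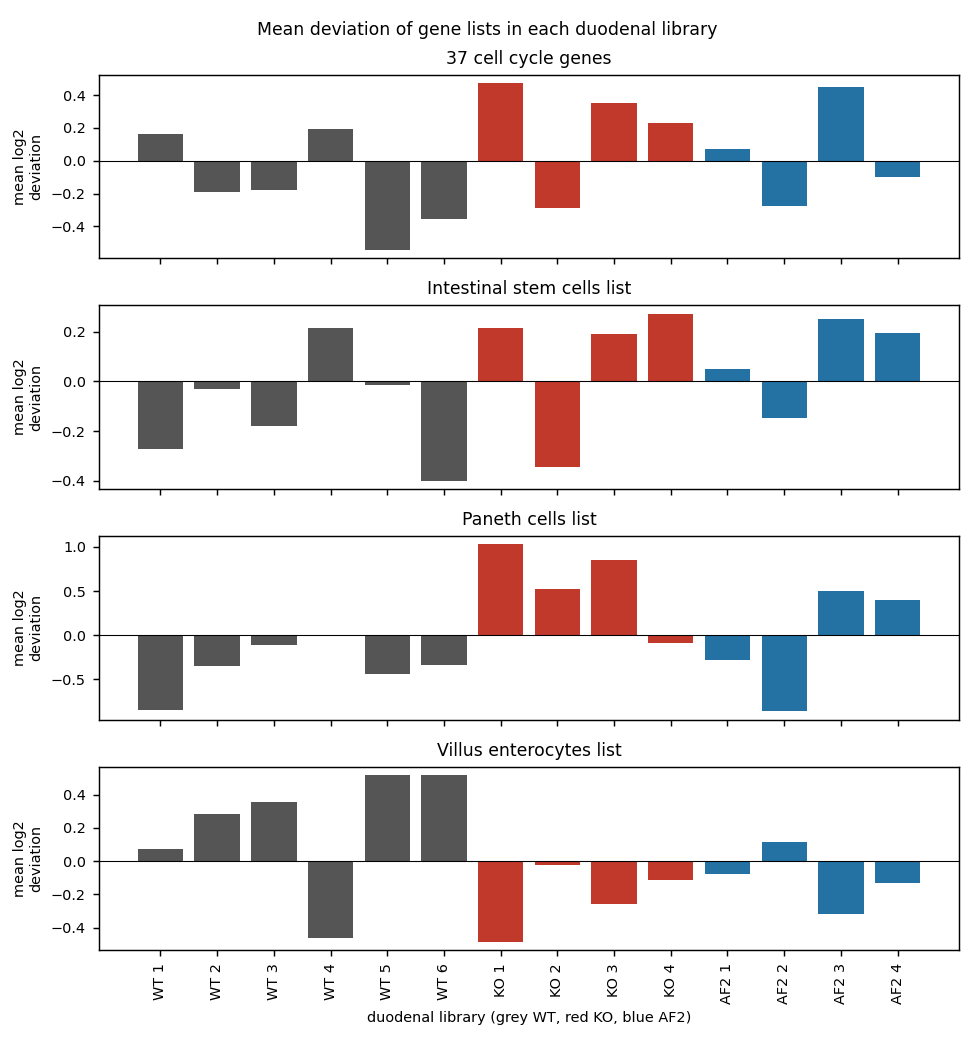
Mean log2 deviation from the tissue mean, per duodenal library, of the 37 genes and of the stem cell, Paneth cell and villus enterocyte lists (bars). WT 5 and WT 6 have low values of the 37 genes (-0.54 and -0.35) and high villus values (both 0.52), while WT 4 has 0.19 and -0.46.

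Library by library, the villus list deviated by 0.08, 0.29, 0.35, -0.46, 0.52 and 0.52 in WT 1 to WT 6 and by -0.49, -0.03, -0.26 and -0.11 in KO 1 to KO 4. It deviated by -0.08, 0.12, -0.32 and -0.13 in AF2 1 to AF2 4. KO 1 and AF2 3, high for the 37 genes, were low for villus genes. They were also high for stem cell genes (0.22 and 0.25) and Paneth cell genes (1.03 and 0.50). Other libraries differed: WT 1, at 0.16 for the 37 genes, had -0.27 for stem cell and -0.85 for Paneth cell genes. KO 2, at -0.29 for the 37 genes, had -0.35 and 0.53, and AF2 4, at -0.10, had 0.19 and 0.40.

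Other genes of the pathway were called in no genotype contrast of the duodenum by edgeR. Of 85 tested, 22 had an unadjusted p under 0.05 in KO (11.4% of all genes), 8 in AF2 (11.8%) and 10 between AF2 and KO (9.98%), limma-voom called 0 in each, and DESeq2 called 1, E2f2 in KO. E2f2, an activating E2F factor, had a log2 fold change of 0.93 ± 0.21 there (edgeR adjusted p 0.0824). In KO the fold change was above 0 for 19 of 19 polymerase, clamp loader and RPA genes (median 0.49), 11 of 11 transcription factors (0.25), 12 of 13 condensin, cohesin and kinetochore genes (0.41) and 9 of 11 G1 genes (0.18). It was so for 8 of 14 origin genes, 8 of 11 checkpoint genes and 3 of 6 kinase inhibitors. In AF2 it was so for 16 of 19 polymerase genes (median 0.18), 6 of 11 transcription factors, 11 of 13 condensin genes (0.12), 6 of 11 G1 genes, 4 of 14 origin genes, 9 of 11 checkpoint genes (0.25) and 2 of 6 inhibitors.

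In kidney 28 of the 37 genes passed the expression filter, and the 9 that did not are those named above. Against WT, edgeR called 0 of 28 in KO (0.844% of all 13502 genes) and 0 in AF2 (2.71%), and 0 between AF2 and KO (0.333%). At an unadjusted p under 0.05 there were 9 (10.5% of all genes), 3 (14.5%) and 5 (11.5%). DESeq2 called 1 in KO, Kif23, and 0 in the others, and limma-voom 0 in each, with no share of all genes given for either tool. The fold change was above 0 for 17 of 28 in KO (49.4% of all genes), 11 in AF2 (50.6%) and 8 between AF2 and KO (6757 of all 13502 genes). Summed levels of all 37 were 193 ± 29.3 CPM (WT, SD, n = 6), 219 ± 54.2 CPM (KO, SD, n = 4) and 189.9 ± 23.7 CPM (AF2, SD, n = 4).

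Kif23, a motor of the last step of cell division, is named for having the lowest adjusted p in kidney. It ranged over 4.08, 8.82 and 13.4 CPM in WT and stood at 11.2, 36.3, 14.4 and 18.0 CPM in KO, where KO 1 lay inside the WT range. The log2 fold change was 1.12 ± 0.28 (edgeR adjusted p 0.0529). It was called without WT 5, without KO 1 and without AF2 4, and Cenpf was called without KO 3. As in duodenum, the share of all genes called in these refits is not given, so the calls are not read as particular to the members. Cenpf ranged over 2.97, 5.73 and 7.57 CPM in WT and stood at 14.4, 14.9, 2.15 and 21.1 CPM in KO, 3 libraries above and 1 below WT (1.22 ± 0.48, adjusted p 0.348).

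Mki67 stood at 5.32, 8.11, 9.21 and 12.9 CPM in KO kidney, against 2.23, 4.08 and 7.17 CPM in WT, so that 3 KO libraries passed the WT maximum (log2 fold change 1.07 ± 0.33, edgeR adjusted p 0.148). It stood at 3.16, 4.37, 4.34 and 4.85 CPM in AF2, every library below every KO library (3.54% of all genes), at -1.08 ± 0.37 against KO (adjusted p 0.221). Top2a overlapped WT in both mutants, its KO libraries standing at 8.52, 11.5, 4.30 and 21.1 CPM. Its AF2 libraries stood at 5.26, 16.5, 9.56 and 10.4 CPM.

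Tyms lay below WT in KO kidney and above it in KO duodenum. In kidney it stood at 11.7, 10.7, 14.4 and 11.7 CPM in KO, all below the WT minimum of 16.6 CPM (1.71% of all genes), with a log2 fold change of -0.51 ± 0.21 (edgeR adjusted p 0.340). In AF2 it stood at 15.8, 26.7, 11.7 and 14.9 CPM. Mcm2, at 4.79, 2.13, 6.45 and 7.81 CPM in KO, had a log2 fold change of -0.70 ± 0.29 (adjusted p 0.369). Tk1 was low in both mutants, at 4.26, 1.28, 2.15 and 3.12 CPM in KO (-0.97 ± 0.43, adjusted p 0.408) and 0.526, 2.43, 3.04 and 2.98 CPM in AF2 (-1.18 ± 0.44, adjusted p 0.174), with the WT minimum at 3.00 CPM. None of these 3 was called in kidney.

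Hells stood at 5.32, 3.41, 6.14 and 8.98 CPM in KO kidney (log2 fold change 0.84 ± 0.40) and 1.58, 1.46, 4.34 and 1.49 CPM in AF2, -1.41 ± 0.47 against KO (edgeR adjusted p 0.198). Cenpf stood at 2.63, 8.26, 1.30 and 3.36 CPM in AF2 (-1.75 ± 0.56 against KO, adjusted p 0.212). Without KO 3 this difference was called, again with no share of all genes given beside it. Other members sat at few reads: Ccnb1 was at 0 in 3 AF2 kidney libraries and at 0.972 CPM in AF2 2, and Kif11 at 0 in AF2 3. Neither passed the expression filter, and their genotype differences in kidney were not tested in the fit of all 14 libraries.

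KO 4 was the highest of the 14 kidney libraries for 17 of the 37 genes and WT 1 for 8. Without KO 4, 16 genes in place of 8 were above 0 between AF2 and KO. The 2 libraries also had the highest sums of 6 kidney injury genes among KO and WT, 1406 CPM in KO 4 (850 to 964 CPM in the other KO libraries) and 1599 CPM in WT 1 (799 to 1282 CPM in the other WT libraries), and no gene of that list was at 0 in either. Macrophage genes summed to 205 CPM in WT 1 and to 139 CPM in KO 4, beside 88.9 to 183 CPM in the other kidney libraries. Their part in the levels of the 37 genes was not tested. Of 65 pathway genes tested in kidney edgeR called 0 in each contrast, with 5 at an unadjusted p under 0.05 in KO (10.5% of all genes), 5 in AF2 (14.5%) and 13 between AF2 and KO (11.5%), and limma-voom called 0. DESeq2 called Ccne2 in KO, where edgeR gave 1.40 ± 0.43 (adjusted p 0.143).

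Whether a genotype effect differed between duodenum and kidney was asked with an interaction term over the 28 libraries. By edgeR it was called for 0 of the 37 genes in KO (0.0535% of all genes) and 0 in AF2 (0.381%), with 6 (7.99%) and 5 (10.7%) at an unadjusted p under 0.05. DESeq2 called 1 in KO, Tyms, and 0 in AF2, and limma-voom 0 in both. For Tyms the KO effect was higher in duodenum than in kidney by 1.25 ± 0.29 on the log2 scale (edgeR adjusted p 0.0720). The others in KO were Tk1 (1.00), Mcm2 (0.97) and Ube2c (0.80), higher in duodenum, and Kif23 (-0.93) and Prc1 (-0.99), lower. In AF2 they were Tk1 (1.45), Cdc20 (1.32), Ube2c (0.90), Ccnb1 and Aurkb, the last 2 on 2 reads and 1 read in all AF2 kidney libraries.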

How the data were processed

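RNA was extracted with TRIzol and libraries were made with the QuantSeq 3' kit from total RNA, per the labels' protocols. Each tissue has 1 deposited table of raw read counts by gene symbol, not normalised by the authors, per the file headers. The submitters' processing notes name mm10 and limma 3.34.9 without a role, and of aligner, counter and strand each is not given in the sources used here. All deposited counts are even, for a reason not given in the sources used here. Reads are taken as counts divided by 2, which is an assumption. Tests used the counts as deposited.

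Each tissue (14 libraries) and both together (28 libraries) were fitted in edgeR 4.0.16 under R 4.3.3 (filterByExpr with a minimum count of 10, TMM, robust quasi-likelihood F test, two-sided, genotype or genotype by tissue as the only term). A call is an adjusted p below 0.05 (Benjamini-Hochberg, over every gene tested), and each SE is |log2 fold change| divided by the root of F. DESeq2 1.42.0, limma-voom (limma 3.58.1), other scalings, blocks and filters were alternatives. The fits were tested on simulated data. Any 2 replicates differed beyond sampling noise (lowest chi-square per degree of freedom 1.96).

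The 37 members, the pathway and marker lists and the tests were chosen with earlier results of these data known. Values by library are given for a panel chosen by role and for the 2 highest and 2 lowest tissue differences, and other members by range, except Kif23, chosen after its values were seen. Coordinates are from GENCODE vM21 and promoters from RefSeq.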

Additional observations from a re-analysis of the deposited data

Results flagged for a closer look

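In 138 groups of 4 or 6 libraries, 13 had a highest or lowest library far from the rest of its group by Dixon's test. For normally distributed values chance does so in about 1 group of 20. Low counts with tied values need not keep that rate, so the 13 are not set against it. In duodenum they were Hells in WT 4 (65.9 CPM), Uhrf1 in WT 1 (7.43 CPM), Cdk1 in AF2 3 (28.9 CPM) and Cenpf in KO 2, the lowest of its group (41.4 CPM). In kidney, KO 4 stood out for Rrm2 (10.9 CPM) and Birc5 (9.76 CPM), and WT 1 for Plk1 (7.17 CPM) and for the summed level of the 37 genes (250.6 CPM). AF2 3 stood out in kidney for Mcm5 (6.08 CPM), Hells (4.34 CPM) and, as the lowest, Ccna2 (0.434 CPM). The other kidney values were Ccnb1 in AF2 2 (0.972 CPM) and Dut in AF2 1 (22.1 CPM). Several of the kidney values rest on few reads, and their cause was not tested.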

How the results depend on the processing

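Between WT tissues 35 members were called in every setting and 34 or 35 on leaving out each library (Mcm6 lost its call without duodenal WT 2, duodenal WT 3 or kidney WT 3), and their median log2 fold change stayed between 2.81 and 3.17. Counts of called members between genotypes did not all stay at 0. The share of all genes called is not given beside each of these counts, so they are not read as particular to the members. For AF2 against WT in duodenum 1 member, Ube2c, was called with library totals only, with DESeq2, with no low-count filter and with a block for the library codes, 3 with the WT libraries of the same code run, and 0 to 3 on leaving out 1 library. For KO against WT in duodenum 2 were called with DESeq2, 4 with no filter (Tyms, Ube2c, Tpx2 and Top2a) and 0 to 4 on leaving out 1 library. In kidney 1 was called for KO against WT with library totals and with DESeq2 (Kif23), 2 with no filter (Cenpf and Kif23) and 0 to 1 on leaving out 1 library, and for AF2 against KO 1 with no filter (Cenpf) and 0 to 1 on leaving out 1 library. For the tissue difference in KO, DESeq2 called 1 (Tyms).

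The number of members above 0 was 19 of 37 for AF2 against WT in duodenum with the replicate block, and 31 for AF2 against KO with the library-code block, with 4 to 15 on leaving out 1 library. In kidney, counts divided by 2 left 19 members to test, of which 9 were above 0 for KO and 7 for AF2 against WT. AF2 against WT in kidney had 18 above 0 with the library-code block and 17 with WT libraries of the same code run, and AF2 against KO had 7 to 16 on leaving out 1 library. The replicate block called 0 members between genotypes of either tissue. The labels do not say whether equal replicate numbers mark the same mouse. Deviations of the same number correlated at -0.08 to 0.10 between tissues, with 1 of 14 over 0.1, and 8 of 14 samples correlated best with their own number, a hint from the data and not the design.

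Refits of single members covered the panel chosen by role and members at an unadjusted p under 0.05 (between WT tissues, the panel and the 2 highest and 2 lowest differences), not all 37 in each comparison. Of their 4031 log2 fold changes, 137 changed sign, 65 of them with a setting and 72 on leaving out 1 library, 32 became called and 0 lost a call. Their cause was not tested. The 65 values follow. For AF2 over WT in duodenum, library totals gave Tyms 0.045. The replicate block gave Top2a -0.020, Hells -0.021, Cdk1 -0.071 and Kif11 -0.082. A block for the library codes gave Mki67 0.59, Tyms 0.14 and Rrm2 0.060. WT libraries of the same code run only gave Mki67 0.60, Tyms 0.15 and Rrm2 0.069. For AF2 over KO in duodenum, limma-voom gave Ccna2 -0.053. Counts divided by 2 gave Ccna2 -0.0015. The replicate block gave Ccna2 -0.014. A block for the library codes gave Mki67 0.39, Top2a 0.36, Pcna 0.22, Rrm2 0.22, Hells 0.51, Cdk1 0.090, Ccnb1 0.35, Plk1 0.033, Cenpf 0.67, Kif11 0.50, Tpx2 0.091 and Nusap1 0.17. For KO over WT in duodenum, the replicate block gave Tk1 -0.10, Cdc20 -0.083 and Birc5 -0.011. A block for the library codes gave Mcm2 -0.23, Rrm2 -0.16, Tk1 -0.19, Hells -0.050, Cdc20 -0.068 and Birc5 -0.028. WT libraries of the same code run only gave Mcm2 -0.22, Rrm2 -0.15, Tk1 -0.18, Hells -0.048, Cdc20 -0.065 and Birc5 -0.024. For AF2 over WT in kidney, library totals gave Tyms 0.0052. The limma-voom fit gave Mki67 0.10, Rrm2 0.033, Plk1 0.065 and Birc5 0.043. The replicate block gave Pcna -0.0035. A block for the library codes gave Mki67 0.65, Tyms 0.0099, Ube2c 0.30 and Birc5 0.42. WT libraries of the same code run only gave Mki67 0.63, Tyms 0.00098, Ube2c 0.29 and Birc5 0.41. For AF2 over KO in kidney, library totals gave Ube2c -0.016. The limma-voom fit gave Top2a 0.081. The replicate block gave Top2a 0.030. A block for the library codes gave Top2a 0.14, Cdk1 0.036, Plk1 -0.68 and Tpx2 1.38. For KO over WT in kidney, a block for the library codes gave Pcna 0.10 and Plk1 0.65. WT libraries of the same code run only gave Pcna 0.10. On leaving out 1 library the values that changed sign had these ranges. For KO over WT in duodenum, Tk1 ran from -0.043 to 0.22, Cdc20 -0.0086 to 0.37. For AF2 over WT in duodenum, Mki67 ran from -0.27 to 0.060, Pcna -0.015 to 0.22, Tyms -0.30 to 0.14, Hells -0.0039 to 0.37, Cdk1 -0.23 to 0.22, Plk1 -0.080 to 0.44. For AF2 over KO in duodenum, Mcm5 ran from -0.36 to 0.0011, Pcna -0.19 to 0.073, Ccnb1 -0.56 to 0.016, Ccna2 -0.21 to 0.16, Cdc20 -0.029 to 0.36, Ube2c -0.0053 to 0.23. For KO over WT in kidney, Top2a ran from -0.0055 to 0.80, Mcm5 -0.75 to 0.066, Pcna -0.26 to 0.037, Rrm2 -0.36 to 0.88, Cdc20 -0.24 to 0.27, Birc5 -0.64 to 0.62. For AF2 over WT in kidney, Mki67 ran from -0.16 to 0.20, Mcm2 -0.14 to 0.024, Pcna -0.036 to 0.26, Tyms -0.30 to 0.14, Rrm2 -0.43 to 0.16, Plk1 -0.74 to 0.019, Ube2c -0.38 to 0.019, Birc5 -0.25 to 0.29. For AF2 over KO in kidney, Top2a ran from -0.40 to 0.40, Rrm2 -0.95 to 0.17, Tk1 -0.43 to 0.10, Cdk1 -0.36 to 0.21, Plk1 -0.29 to 0.80, Ube2c -0.24 to 0.31, Birc5 -0.61 to 0.62, Tpx2 -0.36 to 0.34. For duodenum over kidney in WT, Tyms ran from -0.025 to 0.075.

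Some kidney members rest on few reads over 6 WT libraries, such as Kif11 on 8 and Uhrf1 on 14. The 9 below the expression filter were not tested there with all 14 libraries. With the WT libraries of the same code run, Uhrf1 passed the filter in KO, at a log2 fold change of 3.47 ± 1.19 (SE, edgeR adjusted p 0.279). Its mean was 2.33 CPM in KO and 0.186 CPM in those 2 WT libraries. It thus passed through its KO counts, and the fold change rests on a WT level near 0.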
